A study of Mus musculus with 2 samples.

Results

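Of 32286 features in the count tables, 9 encode Toll-like receptors and the proteins that serve them: the receptors Tlr2, Tlr3, Tlr4, Tlr7, Tlr9 and Tlr13, the co-receptors Cd14 and Ly96, and the adaptor Myd88. They were taken by gene symbol, and all 9 were found. The list itself was chosen with earlier results of these data known, so it is not independent of them. They were followed in leukocytes from the left ventricles of mice that carried transplanted bone marrow and had undergone transverse aortic constriction (TAC), a narrowing of the aorta that loads the heart. The first group had LOY marrow, that is marrow with loss of the Y chromosome, and the second had Control marrow. In both groups TAC was done and viable CD45+ RFP+ cells, leukocytes derived from the transplant, were sorted. Each group was 1 droplet library from 3 mice pooled after the sort. The means by which the Y chromosome was lost, the strain, the age of the mice and the time after TAC are not given in the sources used here. With 1 library per group, no difference below has a replicate check and no test was run. All 95% intervals are exact and cover counting error only.

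Toll-like receptors are sensors of microbial products and of molecules released by damaged tissue. Tlr2 and Tlr4 act at the cell surface, where Tlr4 binds lipopolysaccharide only together with Ly96 (also called MD-2) and receives it from Cd14, whereas Tlr3, Tlr7, Tlr9 and the rodent receptor Tlr13 read nucleic acids in endosomes. All of these receptors but Tlr3 signal through Myd88 to NF-kB and interferon regulatory factors, and in the heart they are studied as a link between strained or injured muscle and the cytokines of macrophages.

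The LOY library kept 5180 cells with 17476705 unique molecular identifiers (UMIs, each a counted transcript), and the Control library kept 6601 cells with 38181369 UMIs. Depth therefore differed, with medians of 3006 UMIs per LOY cell and 5090 per Control cell. Of the cell barcodes, 31 occurred in both libraries, 19 of them among the kept cells. The 4 Y-linked genes used to check the labels had 14.0 CPM (UMIs of a gene or list per 1000000 UMIs of the cells) in the LOY library and 124 CPM in the Control library. Clustering gave 22 clusters, of which 8 were macrophage-like, with 2967 LOY and 3510 Control cells. In a further 3, led by Ly6c2, Slc40a1 and Fcna, all 10 macrophage markers were found, but more monocyte than macrophage markers were among the leading genes, so they are called by those leading genes only. Smaller classes were monocyte-like, neutrophil-like, conventional dendritic cell-like (cDC-like), B cell-like, T cell-like and NK cell-like. The largest share of LOY macrophage-like cells was in the Spp1 cluster (45.1%, against 0.484% of the Control cells), and most Control ones were in the H2-Eb1 and Egr1 clusters (9.64% and 2.46% of LOY cells, against 32.3% and 29.7% of Control cells). The Spp1 and Cyp4f18 clusters held only 17 and 19 Control cells, so they may mark the LOY library and not a cell state, and levels there are given for LOY alone. A list of 25 genes induced by dissociation and stress summed to 10507 CPM in LOY and 21535 CPM in Control macrophage-like cells, with 20 of the 25 over 1.5-fold lower in LOY, where 8.79% of all genes measured were that much lower.

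Across cell types the 9 genes differed in pattern. Cd14, Ly96, Tlr2, Tlr4 and Tlr13 were spread over macrophage clusters, monocyte-like and neutrophil-like cells and were near the level of free RNA in lymphocytes. Tlr7 shared the macrophage and monocyte part of this pattern but was hardly counted in neutrophil-like cells (0 LOY and 3 Control UMIs). Tlr3 stood apart, with its peak in cDC-like cells, and Tlr9 was low throughout. Myd88 was spread over all myeloid cells and was not confined to them. It had 30.7 CPM in LOY and 26.7 CPM in Control T cell-like cells, and 0 and 19.2 CPM in B cell-like cells. Cd14 had the highest level of the 9 in each macrophage cluster and in monocyte-like and neutrophil-like cells of both libraries. Because transcripts were counted once each near the 3′ end, these levels do not scale with transcript length. In T cell-like cells, which should lack Cd14, it had 1 LOY UMI (4.39 CPM) and 21 Control UMIs (20.8 CPM), and this is taken as the level that free RNA can reach.

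**Figure D1:**
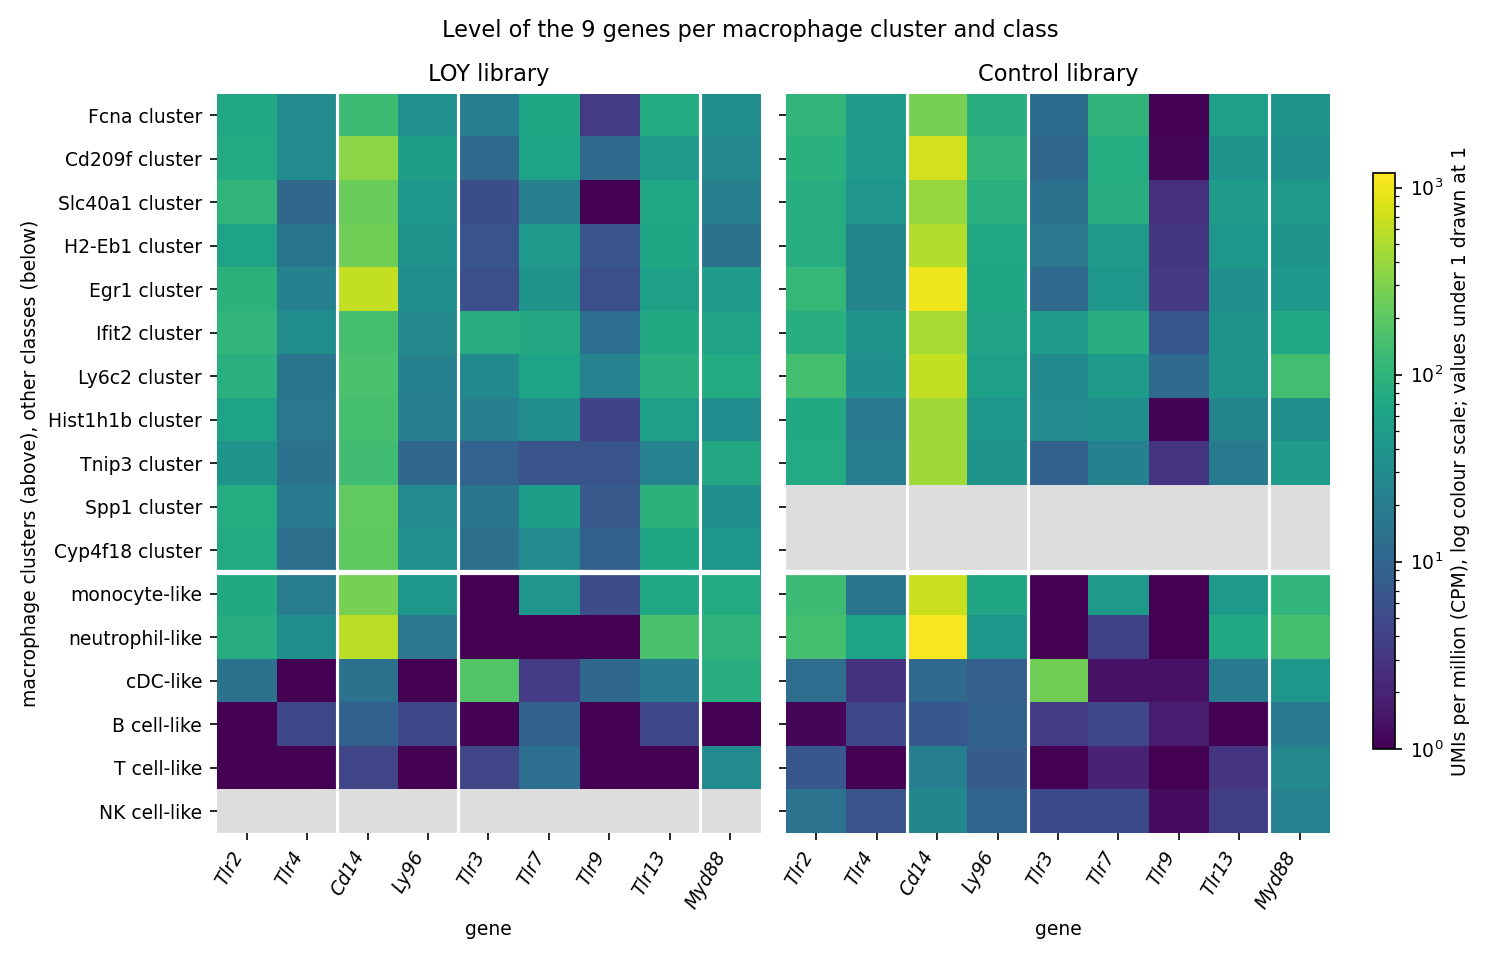
Level of the 9 genes in CPM, on a log colour scale, in the LOY library (left) and the Control library (right). Rows are macrophage clusters named by their leading gene (above the white line) and other classes (below it), columns are grouped into surface receptors, co-receptors, endosomal receptors and the adaptor, and grey rows had fewer than 50 cells in that library. Cd14 is the brightest column, at 618 CPM in LOY and 989 CPM in Control cells of the Egr1 cluster, and Tlr3 is brightest in cDC-like cells.

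Counted over all cells, 8 of the 9 genes reached 10 CPM in either library, the minimum set for a comparison, and Tlr9 did not. A gene was called over 1.5-fold apart on log2((LOY CPM + 10)/(Control CPM + 10)), a scale that shrinks differences of low genes. Tlr13 was over 1.5-fold higher in LOY, Cd14 and Ly96 were over 1.5-fold lower, and the other 5 lay between. Of all 8001 genes with that level, 5.82% passed the call as higher and 9.12% as lower. In macrophage-like cells the same 3 genes passed, where 6.92% of 7831 genes passed as higher and 8.79% as lower. The median log2 ratio of the 8 genes there was -0.24, against -0.03 for all genes measured. With all clusters nearest to macrophages taken as the class, a set chosen after the data had been seen, it was again 1 gene higher (6.16% of genes) and 2 lower (8.15%).

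The other classes gave other members, against wider backgrounds. Monocyte-like cells had 7 members measured, of which none was higher (8.23% of genes) and 2 were lower, Cd14 and Tlr2 (15.1% of genes). Neutrophil-like cells had 6 measured, with Tlr13 higher (16.4% of genes) and Tlr2, Tlr4, Cd14 and Ly96 lower (26.3% of genes). In cDC-like cells 6 were measured and Tlr9 and Myd88 were higher (15.6% of genes), Tlr9 from 3 LOY UMIs and 1 Control UMI, while none was lower (19.9% of genes). Lymphocytes had few UMIs of these genes. In T cell-like cells 3 were measured, with Tlr7 higher on 3 LOY and 2 Control UMIs (18.6% of genes) and Cd14 lower (18.7% of genes). In B cell-like cells only Myd88 was measured, and it was lower (0 LOY and 34 Control UMIs, against 21.9% of genes lower and 9.7% higher).

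In the 9 macrophage clusters with at least 50 cells in each library, 81 pairs of gene and cluster were looked at, of which 7 were under the minimum. Of the 81 pairs, 7.407% passed the call as higher in LOY and 35.8% as lower. Of all genes measured in a cluster, between 4.95% and 14.6% passed as higher and between 9.93% and 19% as lower. The shares of the 81 pairs include the 7 under the minimum, whereas those of all genes count measured genes only. Of the lower pairs, 18 were those of Cd14 and Ly96, which passed in each of the 9 clusters. For Ly96 this depended on the scale, with 22.22% of clusters passing when 50 CPM were added, 75% with at most 5% mitochondrial UMIs and 77.78% after thinning to 1000 UMIs, whereas Cd14 passed in between 83.33% and 100% under the alternatives run. The Ly6c2 cluster, rich in monocyte genes, had 2 members higher (11% of genes) and 5 lower (15.2%). The Slc40a1 cluster, with 51 LOY cells, had 0 higher (12.7%) and 6 lower (18.8%). The H2-Eb1 cluster, led by antigen presentation genes, had 0 higher (7.15%) and 4 lower (9.93%), and the Tnip3 cluster had 0 higher (8.51%) and 4 lower (17.5%). In the remaining 5 clusters 2 members were lower, and these were Cd14 and Ly96. Of genes in the Ifit2, Hist1h1b, Egr1, Fcna and Cd209f clusters, 13%, 11.3%, 19%, 10.7% and 15.9% were lower. Members were higher in 3 of these 5. They were 2 in the Ifit2 cluster (Tlr3 and Tlr13, 9.41% of genes), 1 in the Hist1h1b cluster (Tlr13, 6.48%) and 1 in the Cd209f cluster (Tlr9, 12.1%), against 0 in the Egr1 (14.6%) and Fcna (4.95%) clusters.

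**Figure D2:**
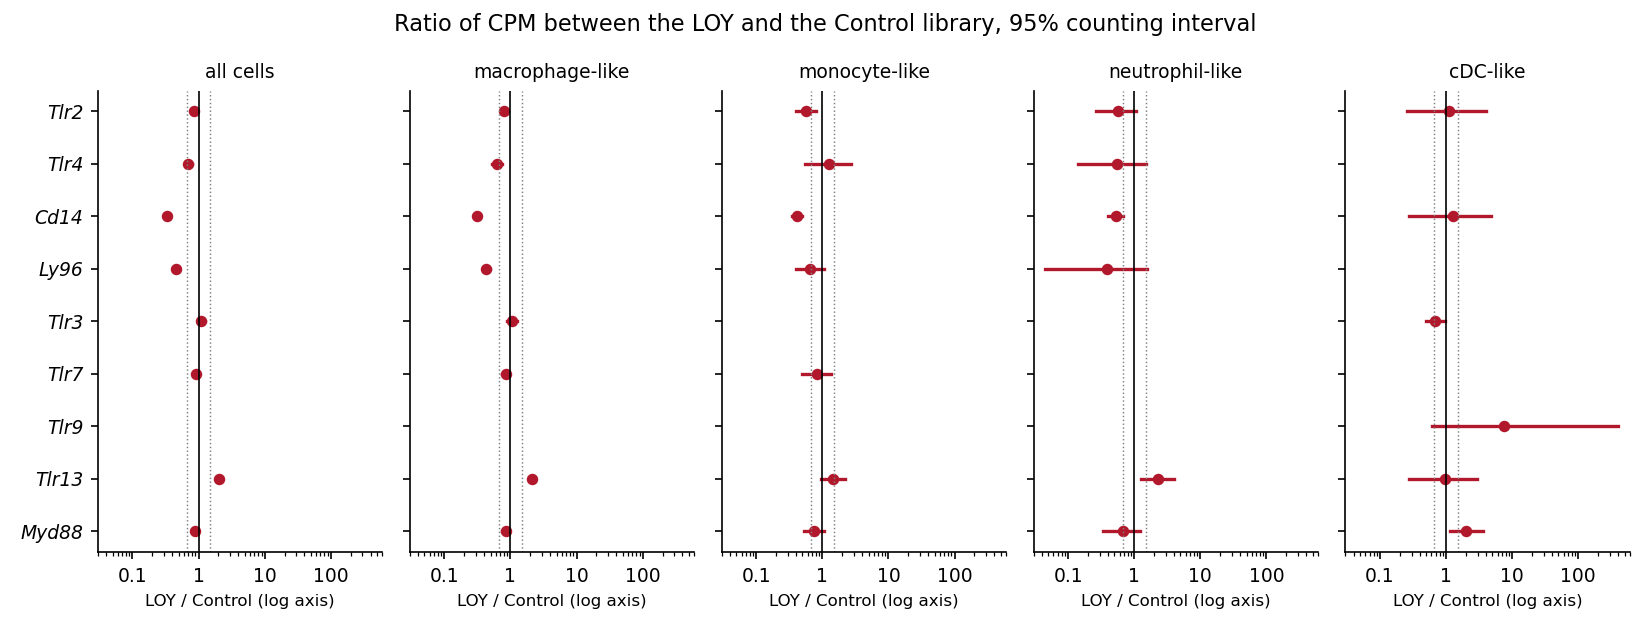
Ratio of LOY to Control CPM (log axis) for each gene in all cells and in 4 classes, where points are ratios, bars are exact 95% counting intervals, the solid line marks 1 and the dotted lines mark 1.5-fold. Genes under 10 CPM in both libraries, or with no UMI in one, are left out. Cd14 and Ly96 lie left of the lower dotted line and Tlr13 right of the upper one in all cells and in macrophage-like cells. Tlr4 also lies left of the lower line in macrophage-like cells, but did not pass the call, which adds 10 CPM to both levels.

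The surface receptor Tlr2 (ENSMUSG00000027995, mm10 chromosome 3, 83836272 to 83841767, minus strand), which recognises bacterial lipoproteins in pairs with Tlr1 or Tlr6, was close between libraries in most macrophages. It had 1246 LOY UMIs (71.3 CPM) and 3212 Control UMIs (84.1 CPM) over all cells, a ratio of 0.847 (0.793 to 0.905). Macrophage-like cells had 74.2 CPM in LOY and 91.9 CPM in Control. Among the macrophage clusters LOY levels lay between 39.2 CPM (Tnip3 cluster) and 106 CPM (Ifit2 cluster), and Control levels between 73.3 CPM (cycling Hist1h1b cluster) and 148 CPM (Ly6c2 cluster). The intervals of neighbours in that order overlapped in 10 of 10 LOY pairs and 8 of 8 Control pairs, so single steps of the order were not resolved. Tlr2 was over 1.5-fold lower in LOY in 2 of the 9 clusters, the Ly6c2 cluster (90.2 and 148 CPM, ratio 0.610, 0.458 to 0.817) and the Tnip3 cluster (39.2 and 77.0 CPM, ratio 0.509, 0.322 to 0.772). Monocyte-like cells showed a similar gap, with 42 LOY UMIs (74.0 CPM) and 176 Control UMIs (131 CPM), a ratio of 0.567 (0.395 to 0.797). In neutrophil-like cells the ratio of 0.565 rested on 10 LOY UMIs and its interval reached 1.08.

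Tlr4 (ENSMUSG00000039005, chromosome 4, 66827584 to 66930284, plus strand), the lipopolysaccharide receptor, was counted at low levels in both libraries. Over all cells it had 355 LOY UMIs (20.3 CPM) and 1111 Control UMIs (29.1 CPM), a ratio of 0.698 (0.618 to 0.787) that stayed short of the 1.5-fold call. Macrophage-like cells gave 18.5 CPM in LOY and 29.2 CPM in Control (ratio 0.633, 0.536 to 0.746). The LOY level was below the Control level in 9 of 9 macrophage clusters, although the interval excluded 1 in only 3 and the call was passed in only 2, the Ly6c2 cluster (15.7 and 35.5 CPM) and the Slc40a1 cluster (10.9 CPM from 2 LOY UMIs, and 40.1 CPM in Control). Among Control clusters Tlr4 was highest in the Fcna and Cd209f clusters (48.8 and 46.5 CPM), which have Lyve1, a marker of resident macrophages, among their leading genes, and where LOY cells had 30.4 and 30.5 CPM. In neutrophil-like cells it had 4 LOY UMIs (33.3 CPM) and 43 Control UMIs (60.8 CPM), a ratio of 0.547 whose interval included 1.

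Cd14 (ENSMUSG00000051439, chromosome 18, 36725067 to 36726798, minus strand), which binds lipopolysaccharide and hands it to the Tlr4 complex, gave the widest gap of the 8 genes measured. It had 3125 LOY UMIs (179 CPM) and 20321 Control UMIs (532 CPM) over all cells, a ratio of 0.336 (0.323 to 0.349). Macrophage-like cells had 205 CPM in LOY and 662 CPM in Control, a ratio of 0.309 (0.295 to 0.324). Beside this ratio stands the mix of clusters. The Egr1 cluster, the macrophage cluster with the highest Cd14, was 2.46% of LOY and 29.7% of Control macrophage-like cells. Without it, a setting chosen after the data had been seen, the log2 ratio of the class went from -1.645 to -1.404. The part of the remaining mix in the class ratio was not tested. The gap held within each of the 9 macrophage clusters, where the LOY level was between 25.4% (Ly6c2 cluster) and 62.5% (Egr1 cluster) of the Control level and the interval excluded 1 in all 9. LOY levels ran from 130 CPM (Fcna cluster) to 618 CPM (Egr1 cluster), and Control levels from 279 CPM (Fcna cluster) to 989 CPM (Egr1 cluster). Of these LOY clusters, only the Egr1 and Cd209f clusters (618 and 347 CPM) lay above the lowest Control cluster. Cd14 was also the gene whose order of clusters was best resolved, since 5 of 8 neighbouring Control pairs and 2 of 10 LOY pairs had intervals apart. The Spp1 cluster of the LOY library had 215 CPM. Outside macrophages Cd14 was lower in LOY monocyte-like cells (157 UMIs, 277 CPM, against 910 UMIs, 675 CPM in Control, ratio 0.410, 0.344 to 0.486) and in LOY neutrophil-like cells (70 UMIs, 582 CPM, against 782 UMIs, 1106 CPM in Control, ratio 0.526, 0.406 to 0.673).

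Detection per cell gave the same direction. With each cell thinned to 1000 UMIs, 18.3% of LOY macrophage-like cells (530 of 2896, 16.9% to 19.8%) and 41.7% of Control macrophage-like cells (1453 of 3484, 40.1% to 43.4%) had a Cd14 UMI, after 71 LOY and 26 Control cells with fewer UMIs were left out. Unthinned shares were 39.5% and 83.5%, at median depths of 3046 UMIs in LOY and 5575.5 UMIs in Control. These shares are over the class, whose mix of clusters differed between the libraries. The background share in thinned T cell-like cells was 1.20% in LOY (1 of 83) and 0.42% in Control (1 of 237). Only 27 of 122 LOY neutrophil-like cells reached 1000 UMIs. Of these 29.6% (13.8% to 50.2%) had a Cd14 UMI, against 43.3% (37.5% to 49.3%) of 284 Control ones, with overlapping intervals.

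Ly96 (ENSMUSG00000025779, chromosome 1, 16688051 to 16709611, plus strand), the small secreted protein that completes the lipopolysaccharide-binding pocket of Tlr4, was also lower in LOY. It had 514 LOY UMIs (29.4 CPM) and 2467 Control UMIs (64.6 CPM) over all cells, a ratio of 0.455 (0.413 to 0.501), and 29.5 and 68.1 CPM in LOY and Control macrophage-like cells. In the 9 clusters the LOY level was between 28.1% (Tnip3 cluster) and 53.5% (H2-Eb1 cluster) of the Control level. The interval excluded 1 in 8 of them, the Egr1 cluster with 6 LOY UMIs being the exception. The ranges overlapped, with LOY clusters between 10.96 and 53.4 CPM and Control clusters between 39.0 and 108 CPM. The Cd209f cluster was highest and the Tnip3 cluster lowest in both libraries. Monocyte-like cells did not pass the call (42.3 CPM in LOY and 63.8 CPM in Control, ratio 0.663, 0.403 to 1.05).

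**Figure D3:**
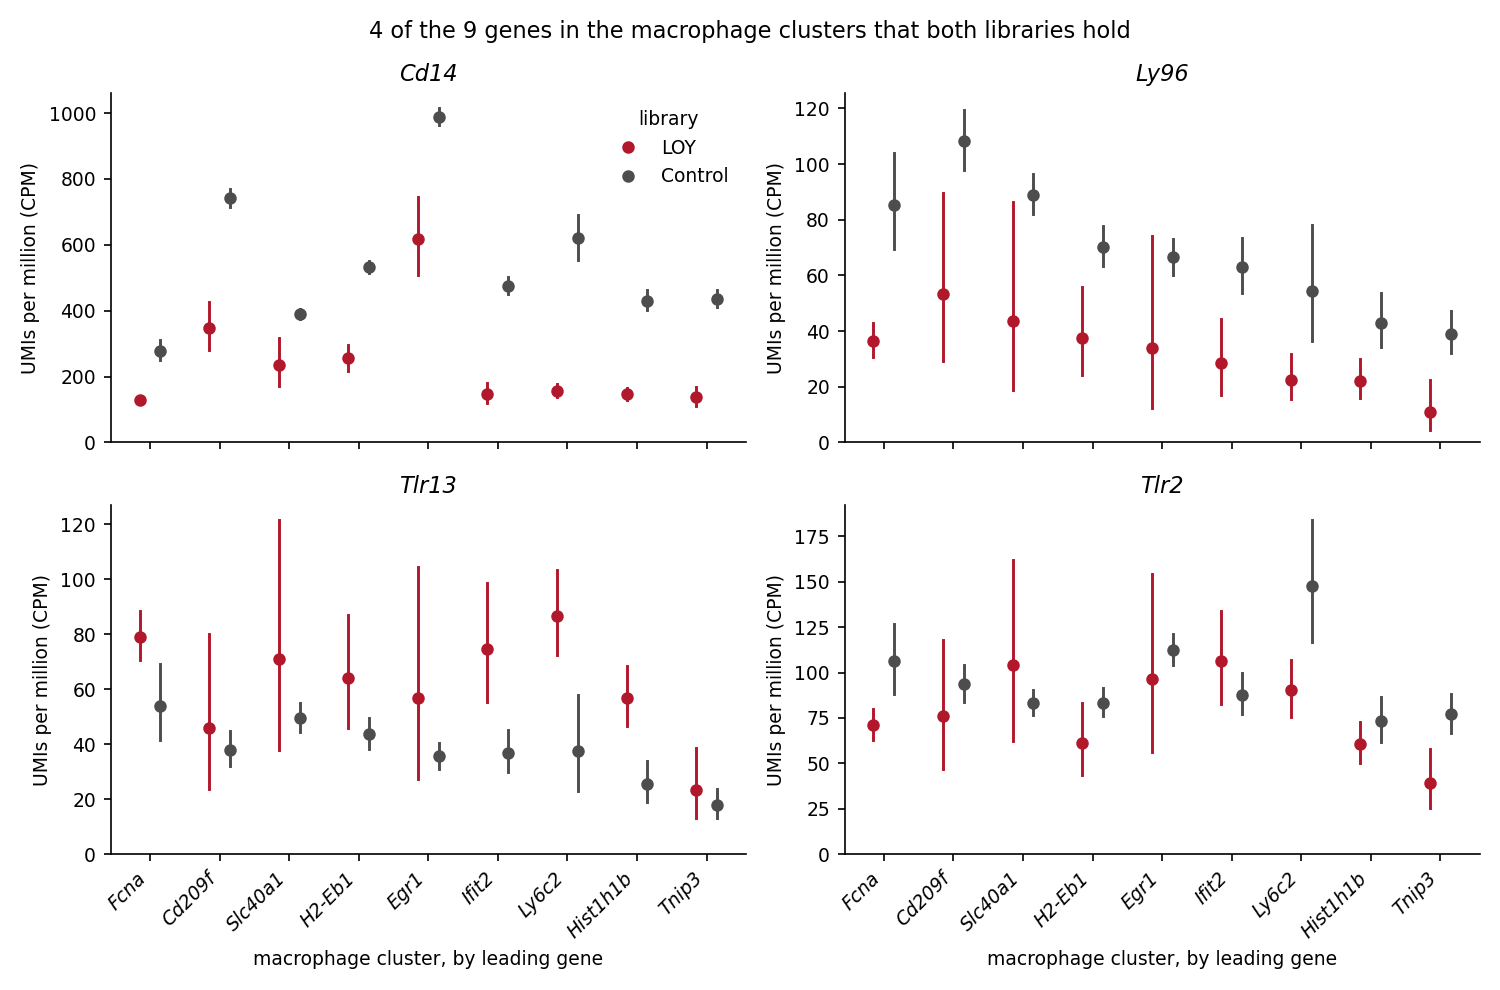
CPM of Cd14, Ly96, Tlr13 and Tlr2 in the 9 macrophage clusters with at least 50 cells in each library, with LOY in red left of Control in grey, and bars as exact 95% counting intervals. Cd14 and Ly96 are lower in LOY in 9 of 9 clusters and Tlr13 is higher in 9 of 9. Tlr2 is lower in LOY in 7, with ratio intervals below 1 in 3 of them, and higher in 2, where the intervals included 1.

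Transcripts of the 3 parts of the lipopolysaccharide receptor were seldom seen in 1 cell. At 1000 UMIs per cell, Tlr4, Ly96 and Cd14 were found together in 1 of 2896 LOY macrophage-like cells (0.0345%, 0.000874% to 0.192%) and in 8 of 3484 Control macrophage-like cells (0.230%, 0.0992% to 0.452%). None of the 3 was found in 77.9% of LOY cells and 53.4% of Control cells. At this depth a missing UMI does not show that a cell lacks the transcript.

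Cd14 and the stress list are given side by side by cluster, since many genes of the list are induced during tissue digestion. Among the 9 macrophage clusters, the Egr1 cluster had the highest stress sum in both libraries (24338 CPM in LOY, 32887 CPM in Control) and the highest Cd14. The stress list was not kept out of the clustering genes. Egr1, Atf3, Zfp36, Fos, Hspa1a, Dusp1 and Btg2, among the leading genes of this cluster, are on it. The high stress sum there is therefore in part given by how the cluster was made. In 3 clusters the stress sums of the libraries lay close together. They were 9569 CPM in LOY and 9081 CPM in Control cells of the Fcna cluster, 13799.7 and 14115 CPM in those of the Slc40a1 cluster, and 9421 and 10539 CPM in those of the H2-Eb1 cluster. Single genes of the list still differed there, with all 25 measured. In the Fcna cluster 7 were over 1.5-fold higher in LOY and 3 lower (4.95% and 10.7% of all genes). In the Slc40a1 cluster 4 were higher and 7 lower (12.7% and 18.8%), and in the H2-Eb1 cluster 2 and 7 (7.15% and 9.93%). Cd14 in LOY was at 46.7%, 60.1% and 47.9% of the Control level in these 3 clusters. In the other 6 clusters the stress sum in LOY was between 46.2% and 74.0% of that in Control. The part of stress in the Cd14 gap was not tested in any of the 9. The median UMIs per LOY cell were between 40.8% and 60.4% of those per Control cell in the 9 clusters, so depth and group cannot be told apart by cluster.

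**Figure D4:**
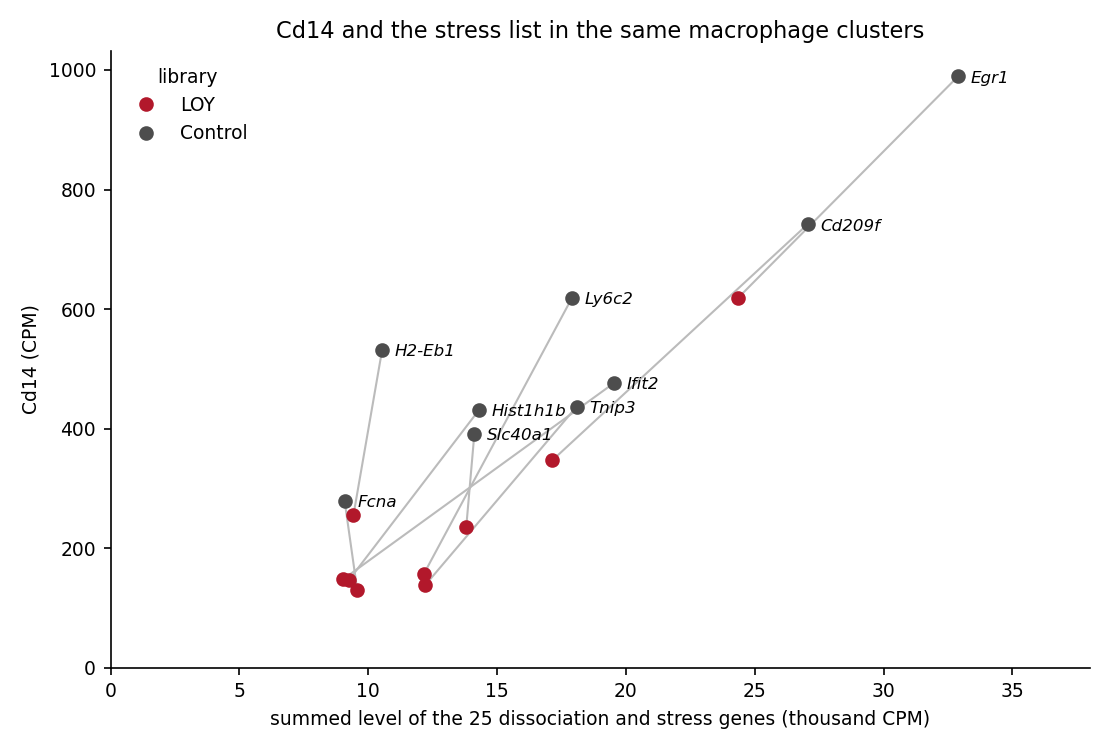
Cd14 level (CPM, vertical axis) against the summed level of 25 dissociation and stress genes (in units of 1000 CPM, horizontal axis) in the 9 macrophage clusters, with LOY in red, Control in grey and a line joining the same cluster, labelled by its leading gene at the Control point. The Fcna, Slc40a1 and H2-Eb1 lines are nearly vertical: there Cd14 in LOY was 46.7%, 60.1% and 47.9% of Control at stress sums of 105%, 97.8% and 89.4% of Control. Single genes of the list still differed between the libraries in these clusters, so a similar sum does not mean a matched list.

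Of the endosomal receptors, Tlr13 (ENSMUSG00000033777, chromosome X, 106143204 to 106160493, plus strand), which recognises bacterial ribosomal RNA, was the only one called higher in LOY over all cells. It had 1281 LOY UMIs (73.3 CPM) and 1371 Control UMIs (35.9 CPM), a ratio of 2.04 (1.89 to 2.20). Macrophage-like cells had 74.0 CPM in LOY and 35.4 CPM in Control. The LOY level was above the Control level in 9 of 9 clusters, by ratios between 1.20 (Cd209f cluster) and 2.32 (Ly6c2 cluster). Only 3 clusters passed the 1.5-fold call, those led by Ly6c2 (86.8 CPM in LOY, 37.4 CPM in Control), Ifit2 (74.7 and 37.0 CPM) and Hist1h1b (56.9 and 25.5 CPM), and the interval excluded 1 in 5. The number of clusters called depended on the processing: the 33.33% of clusters over 1.5-fold higher became 87.5% with doublets kept or at resolution 2, 100% with the 9 genes and the lists among the clustering genes, and 11.11% with 50 CPM added. Beside the class ratio stands the mix of clusters: the Spp1 cluster, 45.1% of LOY and 0.484% of Control macrophage-like cells, had 94.2 CPM in LOY, the highest of the LOY macrophage clusters, and its part in the class ratio was not tested. Tlr13 was also higher in LOY neutrophil-like cells (19 UMIs, 158 CPM) than in Control neutrophil-like cells (49 UMIs, 69.3 CPM), a ratio of 2.28 (1.27 to 3.94), whereas in monocyte-like cells it had 70.5 and 48.2 CPM (ratio 1.46, 0.960 to 2.20). Neutrophil-like cells were shallow, with medians of 819 UMIs in LOY and 2032 in Control. Thinned to 1000 UMIs, 11.1% of 27 LOY (2.35% to 29.2%) and 7.04% of 284 Control ones (4.35% to 10.7%) had a Tlr13 UMI. These intervals overlap. After thinning to 1000 UMIs, 6.80% of LOY macrophage-like cells (197 of 2896) and 3.85% of Control ones (134 of 3484) had a Tlr13 UMI. In the lymphoid background, T cell-like cells had 0 LOY UMIs, which allows up to 13.2 CPM, and 3 Control UMIs (2.96 CPM).

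Tlr3 (ENSMUSG00000031639, chromosome 8, 45395665 to 45411080, minus strand), the receptor for double-stranded RNA, had its highest level in dendritic cells. The cDC-like cells, led by Xcr1, the receptor that marks cross-presenting dendritic cells, had 49 LOY UMIs (175 CPM, 130 to 231) in 58 cells and 180 Control UMIs (255 CPM, 219 to 295) in 60 cells. Their interval was apart from that of the next highest profile in both libraries. That profile was the Ifit2 cluster, led by interferon-induced genes, with 55 LOY UMIs (82.2 CPM, 61.9 to 107) and 131 Control UMIs (49.4 CPM, 41.3 to 58.6), again apart from the next. The remaining macrophage clusters had between 5.47 and 28.7 CPM in LOY and between 9.12 and 30.3 CPM in Control. Over all cells Tlr3 had 21.3 CPM in LOY and 19.5 CPM in Control (ratio 1.10, 0.966 to 1.24). Its ratio differed by cell type, at 1.66 (1.19 to 2.30) in the Ifit2 cluster and 0.687 (0.490 to 0.947) in cDC-like cells, a difference that was not tested. Neutrophil-like cells had 0 UMIs in both libraries, which allows up to 24.95 CPM in LOY and 4.24 CPM in Control.

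Tlr7 (ENSMUSG00000044583, chromosome X, 167304929 to 167330558, minus strand), which recognises single-stranded RNA, was counted mainly in macrophages and monocytes. It had 842 LOY UMIs (48.2 CPM) and 1996 Control UMIs (52.3 CPM) over all cells, a ratio of 0.922 (0.849 to 0.999), and 44.1 and 52.0 CPM in LOY and Control macrophage-like cells. The Ifit2, Fcna and Cd209f clusters were the highest 3 in LOY (71.7, 66.8 and 61.1 CPM), and Control had the Fcna, Ifit2 and Slc40a1 clusters on top (100.2, 86.8 and 82.5 CPM). In Control the upper 4 clusters, down to the Cd209f cluster at 81.0 CPM, were apart from the fifth. The Tnip3 cluster, whose leading genes include the dendritic cell integrin Itgax, was the lowest macrophage cluster in both libraries (4 UMIs, 6.26 CPM in LOY, and 61 UMIs, 22.3 CPM in Control). Tlr7 was over 1.5-fold lower in LOY in that cluster and in the Slc40a1 cluster (4 UMIs, 21.9 CPM in LOY, and 564 UMIs, 82.5 CPM in Control), both with few LOY UMIs. Plasmacytoid dendritic cell-like cells, a cell type known for Tlr7 and Tlr9, were too few to compare (11 LOY and 3 Control cells) and held 4 LOY and 3 Control UMIs of Tlr7 and none of Tlr9.

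Tlr9 (ENSMUSG00000045322, chromosome 9, 106222598 to 106226883, plus strand), the receptor for unmethylated CpG DNA, was the least counted of the 9. It had 127 LOY UMIs (7.27 CPM) and 101 Control UMIs (2.65 CPM), a ratio of 2.75 (2.10 to 3.60), but both levels were under the minimum of 10 CPM and the value is given as a description. The Ly6c2 cluster, which shares genes with Ly6C-high monocytes, was highest in both libraries, with 34 LOY UMIs (23.2 CPM) and 6 Control UMIs (11.2 CPM). B cell-like cells, in which mouse Tlr9 is well known, held 0 LOY UMIs, which allows up to 13.7 CPM, and 3 Control UMIs (1.70 CPM), so no B cell pattern could be read at this depth.

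Myd88 (ENSMUSG00000032508, chromosome 9, 119335934 to 119341411, minus strand), the adaptor, was highest in neutrophil-like cells and, among macrophages, in the Ly6c2 cluster. It had 734 LOY UMIs (42.0 CPM) and 1823 Control UMIs (47.7 CPM) over all cells, a ratio of 0.880 (0.806 to 0.959). Neutrophil-like cells had the highest level in both libraries (99.8 CPM from 12 UMIs in LOY, 149.9 CPM from 106 UMIs in Control). The Ly6c2 cluster had 79.3 CPM in LOY and 140.3 CPM in Control, and monocyte-like cells had 79.3 and 105 CPM. These 3 Control profiles were apart from the rest, whereas in LOY the intervals of all neighbours overlapped and cDC-like cells stood second. The next Control cluster was the Ifit2 cluster (69.8 CPM, and 59.8 CPM in LOY). The ratio was below 1 in 7 of 9 clusters and over 1.5-fold lower in 3, with intervals that excluded 1 in the Ly6c2 cluster (ratio 0.565, 0.419 to 0.766) and the H2-Eb1 cluster (14.1 CPM from 9 UMIs in LOY, 39.3 CPM in Control, ratio 0.358, 0.162 to 0.693). It ran the other way in cDC-like cells, with 24 LOY UMIs (85.7 CPM) and 30 Control UMIs (42.5 CPM), a ratio of 2.02 (1.13 to 3.57). The annotation places Slc22a14 on the same strand at the 3′ end of Myd88 and Acaa1a on the other strand, and how reads shared with them were counted is not given in the sources used here.

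Tlr3 and Myd88 are shown with their promoters because both were high in the interferon-led Ifit2 cluster, the first apart from all other macrophage clusters and the second among the higher ones. The windows run from 250 bases before to 50 bases after the RefSeq gene start (GRCm38.p6, 5′ to 3′ on the gene's strand), which for both genes lies inside the GENCODE span given above and not at its end, and capitals mark a match to GAAANNGAA, the core of the interferon response element, searched on both strands. The windows are chr8:45410331-45410630 for Tlr3 and chr9:119339969-119340268 for Myd88, both on the minus strand.
Tlr3: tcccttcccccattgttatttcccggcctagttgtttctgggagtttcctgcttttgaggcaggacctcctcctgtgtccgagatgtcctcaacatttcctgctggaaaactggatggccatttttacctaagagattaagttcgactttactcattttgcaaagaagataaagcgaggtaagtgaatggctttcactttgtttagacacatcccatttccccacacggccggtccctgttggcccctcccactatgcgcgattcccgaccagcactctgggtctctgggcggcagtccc
Myd88: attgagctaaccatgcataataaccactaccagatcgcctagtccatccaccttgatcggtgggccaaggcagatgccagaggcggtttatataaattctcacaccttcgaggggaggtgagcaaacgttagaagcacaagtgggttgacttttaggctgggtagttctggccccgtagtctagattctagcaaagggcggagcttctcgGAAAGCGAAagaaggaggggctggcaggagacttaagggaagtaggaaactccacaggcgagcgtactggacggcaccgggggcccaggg
The Myd88 window held 1 match, beginning 40 bases before the start, and the Tlr3 window held none. Of 32851 RefSeq promoter windows of this length, 8.56% held the motif. Windows were matched for 5 of the 9 genes, Myd88, Tlr2, Tlr3, Tlr9 and Tlr13, and the other 4 of these held no match. Of those 4, Tlr2 was also high in the Ifit2 cluster, with its highest level of the LOY macrophage clusters there (106 CPM). Tlr9, though low throughout, was higher only in the Ly6c2 cluster among macrophage clusters of both libraries. One NF-kB pattern, GGAANTTCC, found in 0.928% of windows, had no match in the 5. It is a narrow form that many NF-kB sites do not spell, and GGGAATTCCC in the Tlr2 window falls outside it. Wider NF-kB forms were not searched for, so the windows cannot be said to lack such sites. The PU.1 core GAGGAAGT, found in 3.2% of windows on either strand, had 1 match, in the Tlr9 window, and overlaps with other motifs were not looked for. A match is a description of letters and says nothing of binding.

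The rest of the pathway was described with 6 lists of 75 genes, of which 58 reached 10 CPM in macrophage-like cells. There 3 were over 1.5-fold higher in LOY, 18 were over 1.5-fold lower and 37 lay between, where 6.92% of all genes measured were higher and 8.79% lower. The median log2 ratio was -0.21 against -0.03 for all genes measured. Of the other Toll-like receptors only Tlr1, a partner of Tlr2, and Tlr8 were measured, and both lay between (31.7 and 27.6 CPM in LOY, 25.9 and 22.7 CPM in Control). Of 9 trafficking and accessory genes 8 were measured and 2 were lower. These were Unc93b1, the chaperone that carries the nucleic acid-sensing receptors to endosomes (246 CPM in LOY, 570.2 CPM in Control, ratio 0.431, 0.413 to 0.450), and Cd36, a lipid scavenger receptor that assists Tlr2 (62.3 and 173 CPM, ratio 0.359). Unc93b1 was over 1.5-fold lower in 9 of 9 macrophage clusters and 5 of 6 classes, with ratios between 0.272 (T cell-like cells, 3 LOY UMIs) and 0.675 (cDC-like cells). Its folding partners Cnpy3 (81.8 and 65.2 CPM) and Hsp90b1 (513 and 512 CPM) lay between, as did Ly86, the Ly96 relative that pairs with Cd180 (504 and 744 CPM), and Cd180 itself (61.4 and 63.0 CPM).

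**Figure D5:**
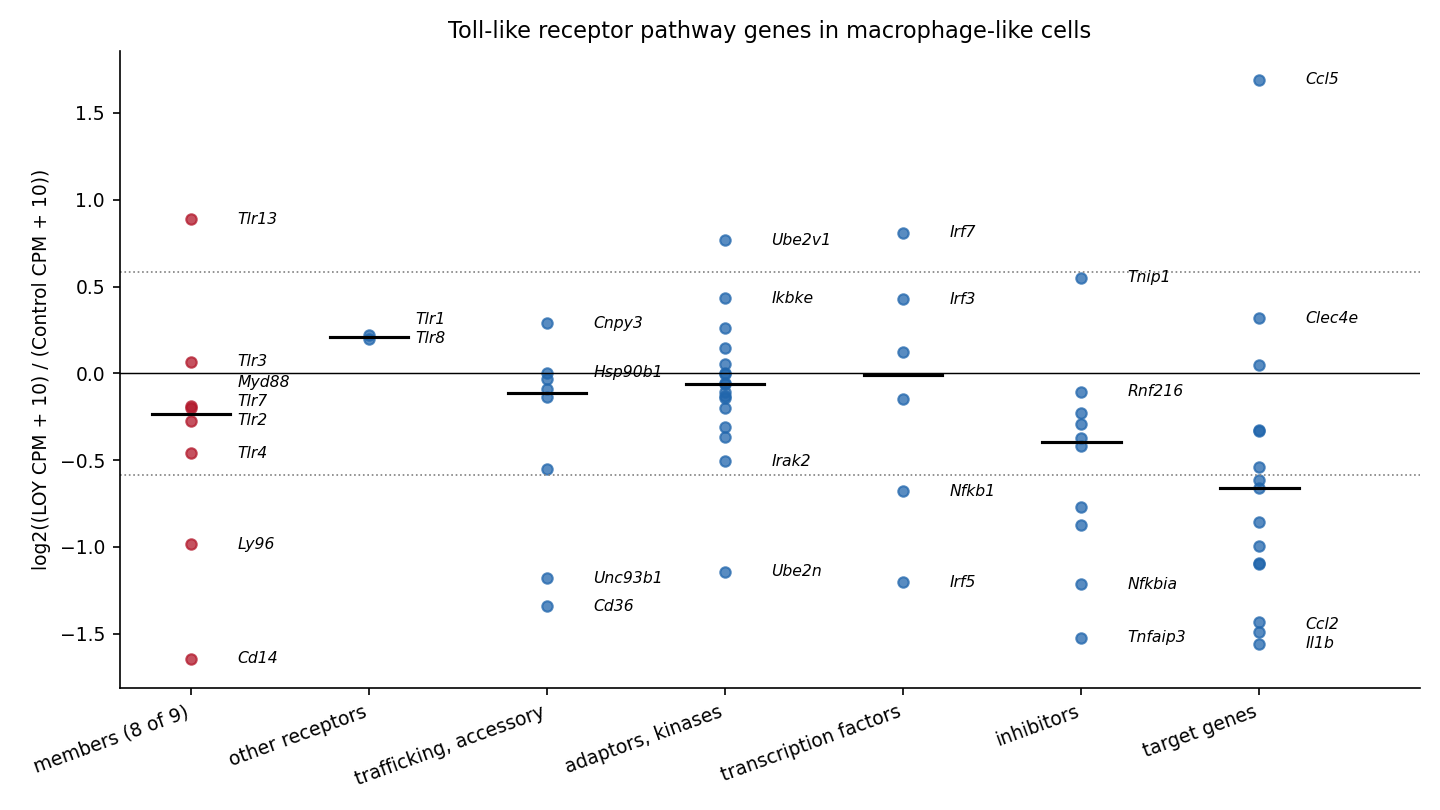
log2((LOY CPM + 10)/(Control CPM + 10)) in macrophage-like cells for 8 of the 9 genes (red) and for the measured genes of 6 pathway lists (blue), with bars at list medians and dotted lines at 1.5-fold. Target genes and inhibitors lie mostly below 0, while adaptors and kinases centre near 0.

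Of 21 adaptors and kinases, 17 were measured, 15 lay between and the median log2 ratio was -0.06. The exceptions were the 2 subunits of a ubiquitin-conjugating enzyme that serves Traf6. Ube2v1 had 111 CPM in LOY and 61.3 CPM in Control macrophage-like cells (ratio 1.82, 1.68 to 1.97), while Ube2n had 41.4 and 104 CPM (ratio 0.400, 0.359 to 0.444). Ube2n was over 1.5-fold lower in 6 of 6 classes and 8 of 9 clusters, but similar copies of it, Ube2n-ps1 and Ube2nl, are annotated, so its count is uncertain. The adaptor Ticam2 (16.0 CPM in LOY, 23.5 CPM in Control) and the kinase Irak2 (17.7 and 29.3 CPM) were the next lowest, and Ikbke (11.5 and 5.91 CPM) and Irak4 (42.8 and 34.0 CPM) the next highest, all between.

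The transcription factors went in both directions. Irf7, the interferon regulator that acts after Tlr7 and Tlr9, was over 1.5-fold higher in LOY macrophage-like cells (419 and 235 CPM, ratio 1.78, 1.71 to 1.86), in 5 of 6 classes and in 5 of 9 clusters. Irf5, which acts after Myd88 on inflammatory cytokine genes, was over 1.5-fold lower (55.3 and 140.3 CPM, ratio 0.394, 0.359 to 0.431), in 5 of 6 classes and 8 of 9 clusters. Nfkb1 was also lower (55.8 and 95.4 CPM), while Irf3 (49.9 and 34.6 CPM), Rela (66.9 and 60.7 CPM) and Rel (94.9 and 106 CPM) lay between.

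Of 11 inhibitors 10 were measured and 4 were lower, and none was higher. The lowest were Tnfaip3, the ubiquitin-editing enzyme A20 (22.6 CPM in LOY, 83.8 CPM in Control), Nfkbia, the inhibitor of NF-kB (311 and 737 CPM), and Socs1 (5.93 and 19.1 CPM), and the highest was Tnip1 (38.6 and 23.2 CPM), between. Rnf216 (36.3 and 39.8 CPM) and Irak3 (15.7 and 20.2 CPM) also lay between. Tnfaip3 and Nfkbia are immediate NF-kB targets too, and the stress list of the macrophage-like class was lower beside them (10507 CPM in LOY, 21535 CPM in Control), whose part was not tested. Of 22 target genes 15 were measured, 9 were lower and 1 was higher, with a median log2 ratio of -0.66. The clusters did not share this direction. The median over measured target genes was below 0 in 5 of the 9 clusters. The lowest was -0.81 in the Hist1h1b cluster, with 1 higher and 9 lower of 14 measured (6.48% and 11.3% of all genes). The highest of these 5 was -0.25 in the Ly6c2 cluster, with 2 higher and 6 lower of 16 (11% and 15.2%). The median was above 0 in the other 4. It was 0.54 in the Fcna cluster, with 6 higher and 2 lower of 12 measured (4.95% and 10.7% of all genes). In the Slc40a1 cluster it was 0.41, with 6 higher and 2 lower of 14 (12.7% and 18.8%). In the Egr1 cluster it was 0.33, with 5 higher and 2 lower of 16 (14.6% and 19%). In the H2-Eb1 cluster it was 0.11, with 4 higher and 3 lower of 12 (7.15% and 9.93%). The median over all genes measured lay between -0.104 and 0.006 in the 9 clusters. The class value is not a mixture of these medians. The class leaves out the Ly6c2, Slc40a1 and Fcna clusters and includes the Spp1 and Cyp4f18 clusters, which were not compared. The mix of its clusters differed between the libraries, and the part of that mix in the class value was not tested. In the class as a whole, Il1b had 219 CPM in LOY and 663 CPM in Control (ratio 0.330, 0.315 to 0.345), the chemokine Ccl2 had 95.7 and 287 CPM (ratio 0.334), and Cxcl1, which attracts neutrophils, had 8.60 and 40.2 CPM. Of these, Ccl2 was over 1.5-fold lower in 9 of 9 clusters and Il1b in 4 of 9. Ccl5 was the exception, with 295 CPM in LOY and 84.5 CPM in Control (ratio 3.49, 3.30 to 3.70), and was over 1.5-fold higher in 6 clusters and lower in 2. The interferon target Cxcl10 was nearly level (220 and 213 CPM), and the lectin Clec4e (10.8 and 6.66 CPM) lay between.

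Within the LOY library the macrophage-like cells were also split by whether a Y-linked UMI was found, a comparison chosen after the data had been seen. The 107 cells with such a UMI were deeper (median 3910 UMIs) than the 2860 without (3017 UMIs), and free RNA can supply a Y-linked UMI. Cd14 was at 158 CPM (125 to 197) in cells with a Y-linked UMI and 207 CPM (198 to 217) in cells without, and both were below the 662 CPM of Control macrophage-like cells. Ly96 (28.1 and 29.5 CPM) and Tlr13 (88.2 and 73.3 CPM) had overlapping intervals. Tlr7 was the other member whose ratio excluded 1, at 70.2 CPM with and 42.7 CPM without (ratio 1.64, 1.13 to 2.32). In the Control library, Cd14 had 639 CPM in the 1610 cells with a Y-linked UMI and 689 CPM in the 1900 without. The ratio excluded 1 there for Cd14 (0.928, 0.898 to 0.958), for Ly96 (64.4 CPM with and 72.5 CPM without, ratio 0.889, 0.803 to 0.983) and for Tlr4 (31.8 and 25.96 CPM, ratio 1.23, 1.05 to 1.44). A missing Y-linked UMI does not show loss of the Y chromosome, as the 1900 Control cells without one make plain. Control cells with such a UMI were also deeper (median 6605.5 UMIs) than those without (4916 UMIs). The splits therefore cannot tell loss of the Y chromosome from depth or free RNA, and its part in the gaps between libraries was not tested.

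Over 31 profiles, each a cluster in 1 library with at least 50 cells, the 9 genes were compared by pattern, as a description without a test, since the profiles share libraries and depth. On log2(CPM + 10), Cd14 went with Tlr2 (Pearson r 0.932), Ly96 (0.862) and Tlr4 (0.854), and Tlr2 with Tlr13 (0.839). Tlr3 had r between -0.196 and 0.457 with the other 8, and Myd88 was highest with Tlr2 (0.555). Among 9138 other genes, the patterns most like Cd14 were those of Pla2g7 (0.945), Slc11a1 (0.938) and Cd300ld (0.930). For Tlr2 they were Lamp2 (0.957), Bmpr2 (0.933) and Metrnl (0.932), and for Tlr4 C5ar1 (0.919), Sh3glb1 (0.911) and Lamp2 (0.909). Ly96 was followed by Rnf130 (0.924), Rnf13 (0.907) and Ftl1 (0.8998), and Tlr7 by Rnase4 (0.918), Cmklr1 (0.913) and Ehd4 (0.908). Tlr13 was nearest to Eif4ebp1 (0.935), Lst1 (0.919) and Mbnl2 (0.903), Tlr3 to P2ry14 (0.891), Anpep (0.846) and Timeless (0.838), and Myd88 to Mob1b (0.820), Ist1 (0.817) and Rab5if (0.815). Tlr9 had too few UMIs for such a search.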

How the data were processed

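The authors deposited raw UMI counts per gene and barcode for 2 libraries, LOY and Control, made with Cell Ranger 5.0.0 on the build mm10, per the submitters' processing notes and the file headers. Per the labels' protocols they used a 10x Genomics 3′ kit on cells pooled after sorting. The annotation release and the barcode filter are not given in the sources used here. Gene positions came from GENCODE M21 on mm10 and promoters from RefSeq.

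From these counts, cells were kept if they had 500 UMIs and 200 genes or more and no more than 10% of UMIs from mitochondrial genes. The highest doublet scores (scrublet in scanpy 1.11.5), at 0.8% per 1000 barcodes, were removed in each library (235 LOY and 391 Control), because the automatic threshold marked only 2 and 101. Both libraries were clustered together (2000 variable genes without the 9 genes and the pathway lists, 30 principal components, 15 neighbours, Leiden resolution 1, igraph 0.11.9). The stress list was not kept out of these genes. A cluster took the type of 18 with the highest share of markers seen in at least 25% of cells, and stayed numbered where another type had more markers among its first 10 genes. UMIs were summed per class and library (Python 3.11.15, scipy 1.17.1), with exact Poisson, conditional binomial and Clopper-Pearson intervals at 95%. Where no UMI was counted, the limit given is 3 UMIs. Only the log2 ratio, the 1.5-fold call and the ratio interval were tested on simulated counts, which had no variation between mice. The filters, doublet removal, clustering and thinning were not tested.

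Named are the 9 genes, of each other list the 3 highest and 3 lowest ratios, and the 3 genes of most similar pattern. The members and lists were chosen with earlier results of these data known. Alternatives changed the doublets, filters, resolution, clustering genes, added CPM, CPM total and thinning.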

Additional observations from a re-analysis of the deposited data

Results flagged for a closer look

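For 2 of the 9 genes the libraries differed in opposite directions between cell types, with counting intervals that excluded 1 on both sides, while the difference between the cell types was not tested. The LOY to Control ratio of Tlr3 was 1.66 in the Ifit2 cluster, against 0.687 in conventional dendritic cell-like cells and 0.376 in the H2-Eb1 cluster, the last from 4 LOY UMIs. The ratio of Myd88 was 2.02 in conventional dendritic cell-like cells and 1.43 in the Tnip3 cluster, whose interval begins just above 1, against 0.851 in macrophage-like cells, 0.565 in the Ly6c2 cluster and 0.358 in the H2-Eb1 cluster, the last from 9 LOY UMIs. The intervals cover counting error in 2 libraries only, and 9 genes were looked at in each of the 6 classes and 9 clusters.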

How the results depend on the processing

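Across the alternatives run, Cd14 kept a log2 ratio between -1.80 and -1.40 in macrophage-like cells, Ly96 between -1.18 and -0.57 and Tlr13 between 0.54 and 1.04, and no called value changed sign. With 50 CPM added in place of 10, the genes over 1.5-fold higher went to 0 both in all cells and in macrophage-like cells (1 each before) and those lower to 1 (2 before), since this shrinks Ly96 and Tlr13. With 1 CPM added, Tlr4 in macrophage-like cells had a log2 ratio of -0.63 and passed the call, and the genes lower there became 3. The pairs of gene and macrophage cluster over 1.5-fold higher (7.407%) became 12.35% with thinning to 1000 UMIs, 15.28% with doublets kept, 14.29% with the 9 genes and the lists among the clustering genes and 1.235% with 50 CPM added. Those lower (35.8%) became 23.61% with doublets kept and 14.81% with 50 CPM added. The other pathway genes over 1.5-fold higher in macrophage-like cells were 6 with 1 CPM added, against 3. The clusters with Ly96 lower went to 22.22% with 50 CPM added, and those with Tlr13 higher (33.33%) lay between 11.11% and 100%. Apart from the added CPM, whose shrinkage is by construction, the cause was not tested. Of the other values, 201 stayed within the counting interval or 1.5 times of the count and 38 moved. Further settings, 3 in all, were chosen after seeing the data: all macrophage-closest clusters as the class, the class without the Egr1 cluster and the split by Y-linked UMI. Clustering each library alone gave classes only. No paired analysis was possible because each group is 1 library with no shared replicate number, and no replicate could be left out. Depth limits Tlr9, Tlr4 and all members in the small classes.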
